A study of Rattus norvegicus with 18 samples.

Results

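Retinal bipolar cells carry the signal of rods and cones to the inner retina. The genes described here are 9 genes that are used to recognise these cells or that work in their light response: Grm6, Nyx, Trpm1, Gnao1, Gng13, Pcp2, Prkca, Cabp5 and Vsx1. They were picked by name, with earlier results of these data known. A gene was matched through its symbol in the array's probe table. A probe set is the group of short probes that reads 1 transcript, and the arrays hold 29214 of them. Of the 9 genes, 8 had a probe set of their own, 1 each. The only probe set listed for Vsx1, a homeobox factor of cone bipolar cells, is shared with the gene Acss1, so Vsx1 has no value here. The level of every other member is its log2 intensity on each of 18 arrays.

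All arrays were made from whole retinas of Sprague Dawley rats at postnatal day 80 to 120, raised in cyclic light of 5 lux, and each array read a different animal. There were 6 groups of 3 arrays, from animals of both sexes, and sex was not a term in the fit. Control animals had neither pretreatment nor bright light. Saffron animals were fed 1 mg/kg/day of saffron over 3 weeks, and photobiomodulation (PBM) animals had red light for 3 min a day on 5 days. Light damage (LD) animals had 24 h of bright light, at 1000 lux in the sample descriptions and in the methods, although the LD source names say 100 lux. In the SafLD and PBMLD groups the same bright light followed saffron or PBM. The vegetable matrix that carried the saffron was part of the diet of every animal, control included. The damaged cells in this model are photoreceptors, and the retina was not split into layers, so a bipolar cell level here is measured in a mixture. In such whole tissue, fewer cells of a type and less RNA per cell cannot be told apart.

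A bipolar cell of the ON type depolarises when light comes on. In the dark, glutamate from photoreceptors acts on the receptor mGluR6 (Grm6) at its dendrites. The receptor activates the G protein Go, made of the alpha subunit Gnao1 with beta and gamma subunits, Gng13 being the gamma subunit of these cells, and the TRPM1 channel (Trpm1) closes. Nyctalopin, the leucine-rich protein made from Nyx, holds the channel at the dendritic tips. Pcp2 is a small modulator of Go that is known from ON bipolar cells and cerebellar Purkinje cells. Protein kinase C alpha (Prkca) marks rod bipolar cells, and Cabp5, a calcium-binding protein, is found in rod bipolar cells and in some cone bipolar types.

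The results turn on Gng13 and Pcp2, so the sequence around their start sites is shown, with Trpm1 as the channel of the same cascade. Each run holds 250 bases before and 50 bases after the RefSeq start on assembly GRCr8, read 5′ to 3′ on the gene's own strand. The table holds such a run for 8 of the 9 genes, Vsx1 included and Cabp5 not. Gng13 is at chr10:15245448-15245747 on the plus strand, Pcp2 at chr12:6481258-6481557 on the minus strand and Trpm1 at chr1:127130436-127130735 on the plus strand. The RefSeq span of Pcp2 is 6479554 to 6481550, so most of its run lies inside the gene's own span. The start used for Pcp2 is thus not the outer end of that span. Capitals mark the word TAATCC on either strand, which the photoreceptor and bipolar factors CRX and OTX2 bind.
Gng13: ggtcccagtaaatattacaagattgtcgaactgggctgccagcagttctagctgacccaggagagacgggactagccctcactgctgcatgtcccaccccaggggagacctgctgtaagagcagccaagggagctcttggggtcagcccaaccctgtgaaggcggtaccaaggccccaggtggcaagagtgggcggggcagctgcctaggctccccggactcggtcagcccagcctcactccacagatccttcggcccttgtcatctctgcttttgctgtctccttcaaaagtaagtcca
Pcp2: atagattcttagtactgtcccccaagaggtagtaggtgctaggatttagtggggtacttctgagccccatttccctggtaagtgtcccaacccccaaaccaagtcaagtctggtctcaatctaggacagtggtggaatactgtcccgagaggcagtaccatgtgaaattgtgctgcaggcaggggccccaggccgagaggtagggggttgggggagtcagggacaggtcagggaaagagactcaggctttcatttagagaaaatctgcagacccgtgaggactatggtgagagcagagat
Trpm1: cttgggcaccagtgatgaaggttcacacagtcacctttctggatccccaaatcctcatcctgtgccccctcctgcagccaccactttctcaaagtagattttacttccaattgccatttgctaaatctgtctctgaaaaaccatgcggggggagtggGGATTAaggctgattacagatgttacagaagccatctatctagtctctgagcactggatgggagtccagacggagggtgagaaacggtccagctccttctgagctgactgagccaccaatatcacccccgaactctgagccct
Trpm1 held the word on the opposite strand, 93 bases before the start, and Nyx held it 43 bases before its start. Gng13, Pcp2 and the remaining 4 members in the table held none. Of all 33469 promoters of this length, 7.17% held TAATCC on either strand. The word TAATTA, which many homeodomain factors bind, was in 5.36% of all promoters and in 0 of the 8 members. No promoter of a member held both words, so no matches overlapped. The bases of Gng13 were 59.3% G or C and those of Pcp2 52.7%, against a median of 51.7% over all promoters.

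All 8 measured members were well within the range of the arrays, which ran from 1.37 to 14.03 with array medians of 6.12 to 6.19. Averaged over the 18 arrays, the log2 intensity of Pcp2 was 10.72, of Gnao1 10.57, of Trpm1 10.37, of Prkca 10.33, of Cabp5 9.76, of Gng13 8.74, of Nyx 7.99 and of Grm6 7.86. These means describe each probe set alone, since probes differ in brightness and the levels of different genes cannot be ranked from them. Below, a value after ± is the SD of a group's 3 arrays for a level and the standard error for a difference. Differences come from a limma fit of all 18 arrays, and a difference was called when its adjusted p, taken over all 29214 probe sets, was below 0.05. With 3 arrays against 3, no exact test of a single gene could give a p below 0.1. The p-values measure the spread between these animals on 1 array each.

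Gng13, the gamma subunit, was highest in control retinas and lowest in SafLD retinas. Its log2 intensity on the 3 control arrays was 9.09, 9.10 and 9.57. The 3 SafLD arrays read 8.55, 8.14 and 7.92, and all of them lay below every control array. The saffron arrays read 8.91, 9.58 and 8.80, with saffron 2 as the highest of all 18. On the PBM arrays Gng13 was 8.40, 8.47 and 8.31, the tightest group for this gene and again entirely below control. LD arrays read 8.90, 8.62 and 9.21, overlapping control through LD 3. PBMLD arrays spread most, at 8.16, 9.01 and 8.61, and lay below the lowest control array by a small margin at PBMLD 2. The order of the group means was control (9.25 ± 0.27), saffron (9.09 ± 0.42), LD (8.91 ± 0.30), PBMLD (8.59 ± 0.43), PBM (8.39 ± 0.08) and SafLD (8.20 ± 0.32). No step between neighbours in that order was larger than the pooled within-group SD of 0.32, the largest being 0.32 between LD and PBMLD.

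Pcp2, the Go modulator, had the same order of groups over a narrower range. Control arrays read 10.91, 11.03 and 11.18, and SafLD arrays 10.52, 10.25 and 10.27, again with no overlap. PBM arrays read 10.61, 10.50 and 10.41, also below every control array. LD arrays were close together at 10.68, 10.70 and 10.82, just under the lowest control array. Saffron arrays read 10.78, 11.19 and 10.92, with saffron 2 once more the highest of the 18, and PBMLD arrays read 10.53, 10.99 and 10.61. Group means ran from 11.04 ± 0.14 in control through 10.96 ± 0.21 (saffron), 10.73 ± 0.08 (LD), 10.71 ± 0.25 (PBMLD) and 10.51 ± 0.10 (PBM) to 10.35 ± 0.15 in SafLD. The step of 0.23 from saffron to LD and that of 0.20 from PBMLD to PBM were larger than the pooled within-group SD of 0.16, and the other steps were not.

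**Figure D1:**
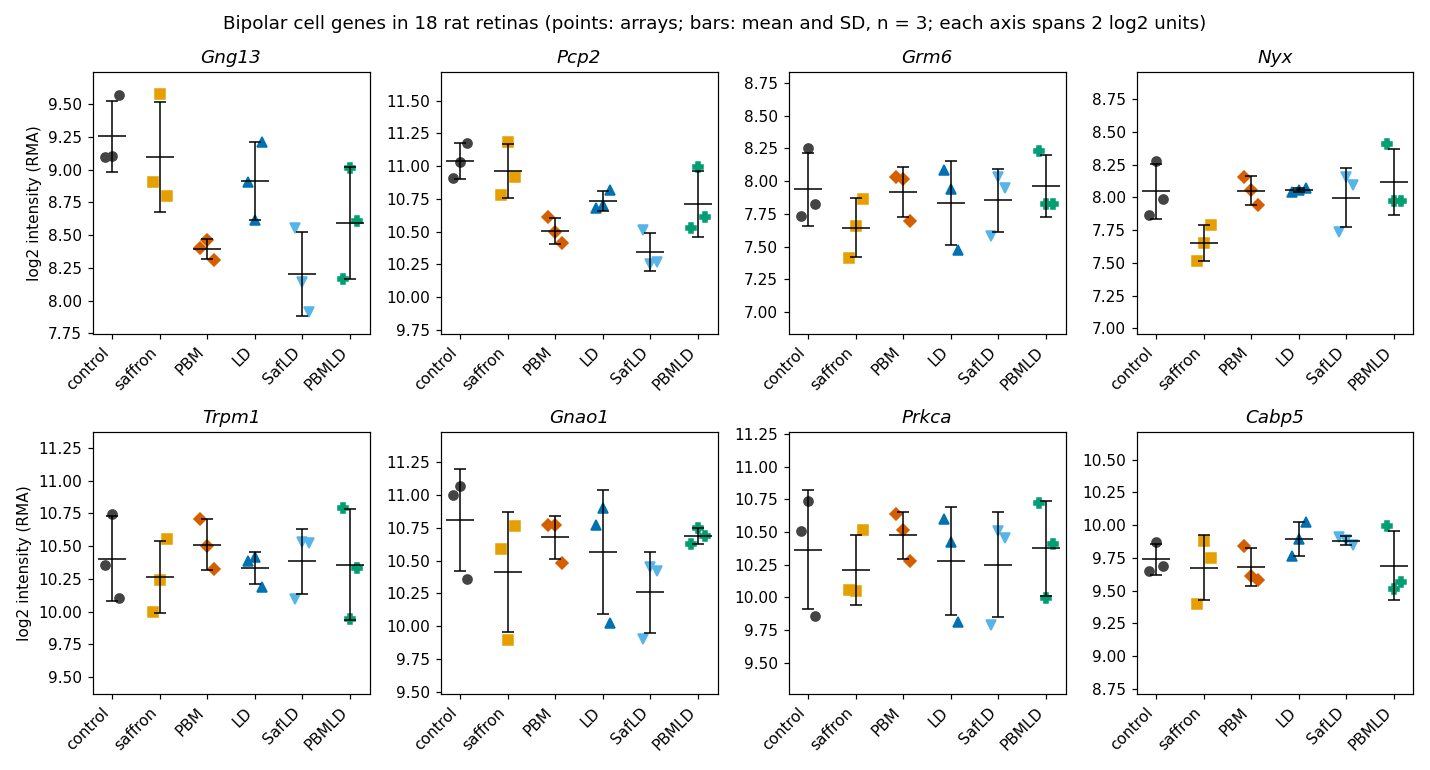
Log2 intensity (vertical axis, RMA units) of the 8 measured bipolar cell genes in the 6 groups, each point an array and each bar the mean with SD of 3 arrays; every panel spans 2 log2 units. SafLD points of Gng13 (7.92 to 8.55) and Pcp2 (10.25 to 10.52) lie below all control points, while the groups of Grm6, Trpm1 and Prkca overlap throughout.

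The comparison of SafLD with control shows how far retinas given saffron and then bright light stood from untreated retinas. Gng13 was lower by 1.05 ± 0.24 on the log2 scale (95% interval -1.55 to -0.55), which is 48.2% of the control level, and its adjusted p was 0.0243. Pcp2 was lower by 0.69 ± 0.14 (-0.99 to -0.39), or 61.8% of control, with an adjusted p of 0.0131. So 2 of the 8 members were called lower and 0 higher, where 1.34% of all probe sets were called lower, 1.45% higher and 2.8% in either direction. The paper had already listed Gng13 as lower in SafLD than in control, and the members were chosen with earlier results known. The count beside these shares is therefore a description and no test of enrichment. With a fold above 2 asked for as well, Gng13 alone was called, against 0.921% of all probe sets. Gng13 and Pcp2 were also the 2 members whose groups did not overlap, against 11.9% of all probe sets that did not overlap in this direction. Both calls rested on the full set of arrays: without control 1, control 3, SafLD 2 or SafLD 3 the Gng13 adjusted p rose above 0.05 (0.0193 to 0.134 over the 6 arrays left out), and without control 3, SafLD 2 or SafLD 3 the same held for Pcp2 (0.0148 to 0.0792). The difference itself stayed between -1.23 and -0.90 for Gng13 and between -0.78 and -0.62 for Pcp2.

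The other 6 members were not called in SafLD against control. Gnao1, the alpha subunit of Go, had the largest estimate among them, -0.55 ± 0.25 with an adjusted p of 0.274. Its SafLD arrays read 9.90, 10.45 and 10.42 and its control arrays ran up to 11.07 (control 2), with control 3 at 10.36 among the SafLD arrays. The receptor Grm6 differed by -0.08 ± 0.19, Nyx by -0.05 ± 0.15 and the channel Trpm1 by -0.02 ± 0.21. Prkca differed by -0.12 ± 0.26 and Cabp5 by 0.14 ± 0.15. The 95% intervals of these 6 genes together ran from -1.08 to 0.45, so a fall as large as that of Gng13 lies outside the interval of each of them but Gnao1.

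Against saffron alone, SafLD shows what bright light went with in saffron-fed rats. Pcp2 was lower by 0.62 ± 0.14 (adjusted p = 0.0291), and it was the 1 member called, where 0.958% of all probe sets were called lower, 1.14% higher and 2.09% in either direction (0.825% with a fold above 2, and 0 members). Gng13 differed by -0.89 ± 0.24 with an adjusted p of 0.0639. Both genes were lower on every SafLD array than on any saffron array, as were 9.24% of all probe sets. The Pcp2 call was lost without saffron 2, saffron 3, SafLD 2 or SafLD 3 (adjusted p 0.0258 to 0.144 over the 6 arrays), and Gng13 was called only without SafLD 1, at 0.0375. Nyx differed by 0.35 ± 0.15 and was not called (adjusted p = 0.284). Lens tissue can be carried over in dissection, and of 17 lens genes 16 had estimates below 0 in the same comparison, with a median of -0.67 and 0 called, and the mean lens level was 9.55 to 10.36 on saffron arrays and 8.81 to 9.64 on SafLD arrays.  With the lens level in the fit the Pcp2 difference was -0.63 with an adjusted p of 0.0680.

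PBM alone, without bright light, was set against control. The paper describes handling and towel restraint with PBM and none for control animals, so red light and handling cannot be told apart. Gng13 differed by -0.86 ± 0.24 (55% of control) and Pcp2 by -0.54 ± 0.14 (69% of control), and the groups of both did not overlap, as for 11.4% of all probe sets in this direction. Neither was called by limma (adjusted p 0.217 and 0.206), although both were among the 2 members with an unadjusted p below 0.05. By limma 0.154% of all probe sets were called. The methods' t-test also asks for a fold above 2, which no member reached, so its count of 0 was fixed. The other 6 members had estimates from -0.13 (Gnao1) to 0.11 (Prkca) and adjusted p-values of 0.897 and above. With arrays weighted by their quality, both genes were called, Gng13 at -0.77 (adjusted p = 0.0215) and Pcp2 at -0.50 (0.0199), and in that setting 802 (2.75%) of all probe sets were called, against 45 without the weights.

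Bright light alone, in LD against control, left no member called, where 1.11% of all probe sets were. Pcp2 differed by -0.31 ± 0.14 (adjusted p = 0.506) with groups that did not overlap, as for 8.88% of probe sets, and was the 1 member with an unadjusted p below 0.05. Gng13 differed by -0.34 ± 0.24 (adjusted p = 0.719). The 6 others lay between -0.24 (Gnao1) and 0.16 (Cabp5). The methods' t-test could call 0 only, since no member reached its fold above 2. In this comparison 17 of 17 lens genes had estimates above 0, with a median of 0.91 and 0 called. The mean lens level was 8.82 to 11.07 on LD arrays and 8.83 to 9.39 on control arrays. Alternative fits held the lens level as a covariate or left out the arrays of high lens level. Leaving those arrays out left LD 2 as the only LD array, and the Gng13 difference was then -0.64. Over the alternatives, single arrays left out apart, that of Pcp2 ran from -0.38 to -0.28. Beyond these fits the part of the lens genes in these values was not tested.

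PBMLD against control gave the same 2 genes as the lowest, Gng13 at -0.66 ± 0.24 (adjusted p = 0.262) and Pcp2 at -0.33 ± 0.14 (0.369). Both had an unadjusted p below 0.05, neither was called by limma, and 0.753% of all probe sets were called. The methods' t-test could call neither, since no member reached its fold above 2. Gng13 was the 1 member without overlap, against 6.52% of probe sets. Within the PBM-treated animals the estimates were above 0: PBMLD minus PBM was 0.20 ± 0.24 for Gng13 and 0.20 ± 0.14 for Pcp2 (adjusted p 0.907 and 0.787), with 0 members called, 0 under an unadjusted p of 0.05 and 0.329% of all probe sets called.

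Against light damage alone, SafLD differed by -0.71 ± 0.24 in Gng13 (adjusted p = 0.305) and by -0.39 ± 0.14 in Pcp2 (0.364). The groups of both did not overlap, as for 6.5% of probe sets, and 0.308% of all probe sets were called. Neither gene was called, and both had an unadjusted p below 0.05. PBMLD differed from LD by -0.32 ± 0.24 in Gng13 and by -0.02 ± 0.14 in Pcp2, with 0 members called, 0 under an unadjusted p of 0.05 and 0.284% of all probe sets called. Without the arrays of high lens level, LD 2 was the only LD array and PBMLD 1 was left out. The Gng13 difference from LD was then -0.41 in SafLD and 0.19 in PBMLD. Over the alternatives, single arrays left out apart, that of Pcp2 ran from -0.41 to -0.32 and from -0.07 to 0.10. No member reached the fold above 2 that the methods' t-test asks for, so its count of 0 in both was fixed.

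Saffron alone left no probe set of the whole array called, 0%. The means of all 8 members were below control, from -0.06 (Cabp5) to -0.40 (Gnao1 and Nyx), with a median of -0.16, where the median over all probe sets was 0.01. Over all named genes 8126 of 14506 estimates lay below 0. The shift was not particular to bipolar cell genes. All 13 amacrine cell genes (median -0.36) and all 12 ganglion cell genes (median -0.35) were below 0 as well. So were 14 of 17 rod genes (median -0.05) and 4 of 10 cone genes (median 0.06). Nyx differed by -0.40 ± 0.15 with an adjusted p of 0.989. It was the 1 member whose groups did not overlap (4.85% of all probe sets did not in this direction) and the 1 with an unadjusted p below 0.05. Its saffron arrays read 7.51, 7.65 and 7.79 and its control arrays 7.87, 8.28 and 7.99. In every member but Gng13, Pcp2 and Gnao1 saffron was the lowest of the 6 groups. The lens list was high in saffron, at a mean level of 9.55 to 10.36 against 8.83 to 9.39 in control. Alternative fits held the lens level as a covariate or left out the arrays of high lens level. Without the arrays of high lens level, which include saffron 1, the saffron difference was -0.07 in Gng13 and 0.01 in Pcp2. Beyond these fits its part was not tested.

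**Figure D2:**
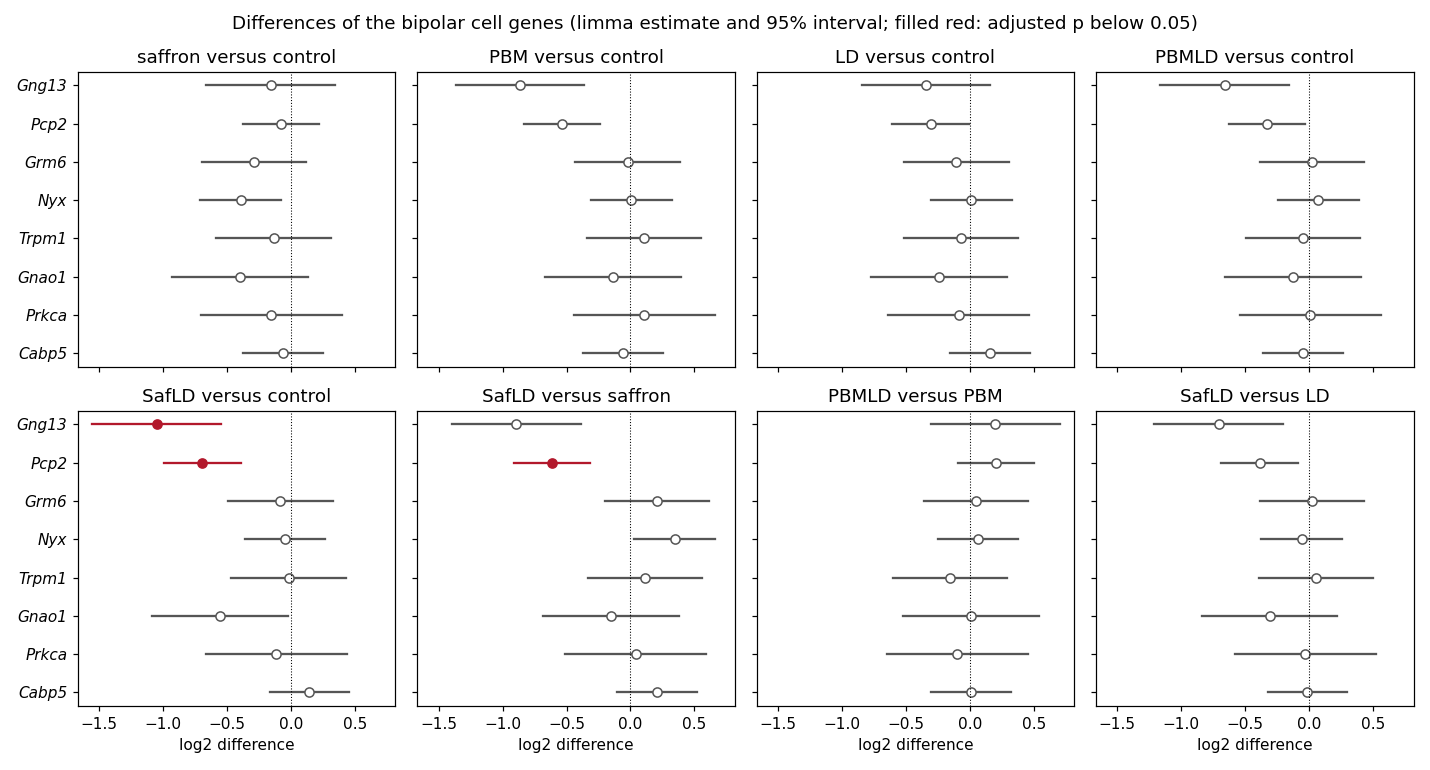
Log2 difference (horizontal axis) of each bipolar cell gene in 8 comparisons, as the limma estimate with its 95% interval; filled red marks an adjusted p below 0.05. Only Gng13 and Pcp2 in SafLD versus control (-1.05 and -0.69) and Pcp2 in SafLD versus saffron (-0.62) are filled.

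Averaged over the 3 pretreatment states, light went with a difference of -0.35 ± 0.14 in Gng13 (adjusted p = 0.203) and of -0.24 ± 0.08 in Pcp2 (0.123). No member was called, where 4.82% of all probe sets were, and the same 2 genes had an unadjusted p below 0.05. Leaving out PBMLD 2 brought Pcp2 to an adjusted p of 0.0291. The others lay between -0.13 (Gnao1) and 0.14 (Nyx). The size of the light difference was also compared between pretreatments. For PBM it differed from that in untreated rats by 0.54 ± 0.34 in Gng13 and 0.51 ± 0.20 in Pcp2 (adjusted p 0.999 for both), and for saffron by -0.55 ± 0.34 and -0.31 ± 0.20 (0.878 and 0.884). The 2 pretreatments thus had estimates of opposite sign, and no interaction of a member was called, with 0.00685% of probe sets called for PBM and 0.14% for saffron. At an unadjusted p below 0.05 Pcp2 was the 1 member for PBM and there were 0 for saffron. Over the 6 groups at once, the F test called Pcp2 (adjusted p = 0.0415), with Gng13 at 0.0625, and 3.1% of all probe sets were called. The count of members in that F test ran from 0 to 2 as single arrays were left out, and it was 0 without any 1 of 14 arrays, namely each control, PBM and LD array, saffron 2 and 3, SafLD 2 and 3, and PBMLD 3.

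Grm6, Trpm1 and Prkca overlapped across all groups. Grm6 ran from 7.41 (saffron 1) to 8.25 (control 2), and its group means from 7.65 ± 0.23 in saffron to 7.96 ± 0.24 in PBMLD. Trpm1 ran from 9.95 (PBMLD 2) to 10.79 (PBMLD 1), so its extremes were 2 arrays of the same group, with means from 10.26 ± 0.28 in saffron to 10.51 ± 0.19 in PBM. Prkca ran from 9.79 (SafLD 1) to 10.74 (control 2), with means from 10.21 ± 0.27 in saffron to 10.48 ± 0.18 in PBM. In these 3 genes the gap between the highest and the lowest group mean (0.31, 0.25 and 0.27) was smaller than the largest within-group SD (0.32, 0.42 and 0.46).

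Cabp5 was the steadiest member, from 9.40 (saffron 1) to 10.02 (LD 3), and the only one with its highest mean in LD (9.89 ± 0.13). Its SafLD arrays were close together, at 9.91, 9.89 and 9.85. Gnao1 ran from 9.89 (saffron 2) to 11.07 (control 2), with means of 10.81 ± 0.39 in control, 10.69 ± 0.06 in PBMLD, 10.68 ± 0.17 in PBM, 10.57 ± 0.47 in LD, 10.41 ± 0.46 in saffron and 10.26 ± 0.31 in SafLD. Nyx stood at 8.05 ± 0.21 in control, 8.06 ± 0.02 in LD, 8.05 ± 0.11 in PBM, 8.12 ± 0.25 in PBMLD, 8.0 ± 0.23 in SafLD and 7.65 ± 0.14 in saffron. The step of 0.35 between SafLD and saffron was the 1 step of Nyx above its pooled SD of 0.18. In Grm6, Trpm1, Prkca, Cabp5 and Gnao1 no neighbouring groups were further apart than the pooled SD.

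The members did not vary as 1 set. Across the 18 arrays the levels of Gng13 and Pcp2 had a Pearson correlation of 0.94, and of 0.86 after the group means were taken out. Trpm1 and Prkca formed another pair (0.88, and 0.88 within groups), joined by Grm6 (0.81 with Trpm1 and 0.82 with Prkca). The 2 blocks ran against each other: Gng13 and Prkca had a correlation of -0.48 and of -0.78 within groups. Over the 28 pairs of members, 16 correlations were above 0, with a median of 0.21 and a range from -0.49 to 0.94. These are descriptions over arrays that share groups and processing, and no test was made of them.

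**Figure D3:**
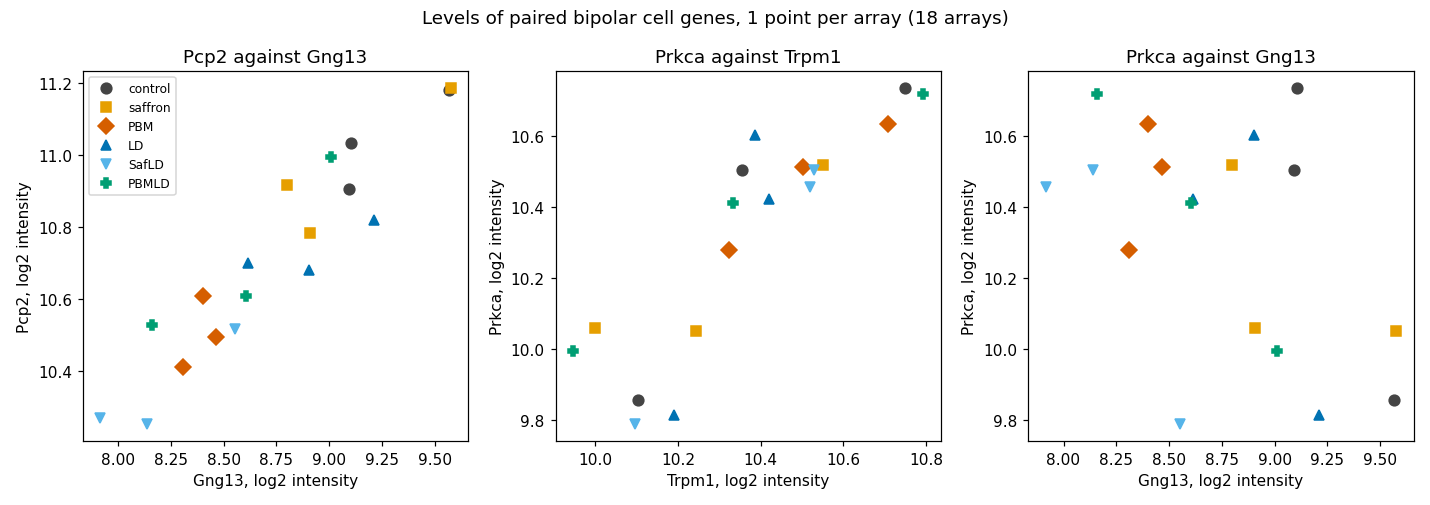
Log2 intensity of 3 pairs of bipolar cell genes, 1 point per array, coloured by group. Pcp2 rises with Gng13 (r = 0.94) and Prkca with Trpm1 (r = 0.88), while Prkca is low on arrays where Gng13 is high (r = -0.48).

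Gene length set Gng13 and Pcp2 apart from the other members. Gng13 and Pcp2 are the shortest members, with RefSeq spans of 1905 and 1997 bases, while Cabp5 spans 13 kb, Grm6 14.7 kb, Nyx 21 kb, Trpm1 117 kb, Gnao1 158 kb and Prkca 399 kb. A balance of short against long genes was therefore taken on each array. It was the mean level of 243 named genes spanning under 2 kb minus that of 1290 spanning over 100 kb. Each of the 2 means was first centred on its average over the 18 arrays. Only genes above the median level were used, and the members were left out. The balance was highest within their groups on control 3 (0.24), saffron 2 (0.21), PBM 3 (-0.07), LD 3 (0.21), SafLD 1 (0.17) and PBMLD 2 (0.39). Gng13 and Pcp2 each had their highest value on that array in 5 of 6 groups. Prkca had its lowest value there in 6 of 6 groups, Trpm1 and Gnao1 in 5 and Grm6 in 4. Nyx had its lowest value there in 2 groups and its highest in 1, and Cabp5 its lowest in 2 and its highest in 3, so neither followed the balance in most groups.

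The balance, which was chosen after the values were seen, had group means of -0.01 ± 0.21 in control, -0.00493 ± 0.15 in SafLD, 0.06 ± 0.14 in saffron, 0.10 ± 0.10 in LD, 0.01 ± 0.33 in PBMLD and -0.16 ± 0.09 in PBM. With the balance in the fit, the SafLD difference from control was again -1.05 for Gng13 and -0.69 for Pcp2, and the difference from saffron was -0.80 for Gng13 (adjusted p = 0.0075) and -0.57 for Pcp2 (0.00552). In the same fit light averaged over pretreatments gave -0.44 for Gng13 (0.00600) and -0.28 for Pcp2 (0.00846), both called, where 9.15% of all probe sets were called in that fit. Against control, PBM gave -0.65 and -0.43 (0.111 and 0.121), and Gng13 was called in PBMLD at -0.68 (0.0302), where 2.33% of all probe sets were. In SafLD the fit called 6.65% of all probe sets against control and 4.58% against saffron. Short genes had a median difference of -0.11 in SafLD against control, with 13 of 243 (5.35%) called lower, and genes over 100 kb one of -0.05, with 20 of 1290 (1.55%) called lower. In that comparison 0 of the 243 short genes had an estimate below that of Gng13 and 5 (2.06%) had one below that of Pcp2. A span runs from gene start to gene end with introns, so the balance does not measure RNA length. The part of RNA length or RNA quality in these results was not tested.

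**Figure D4:**
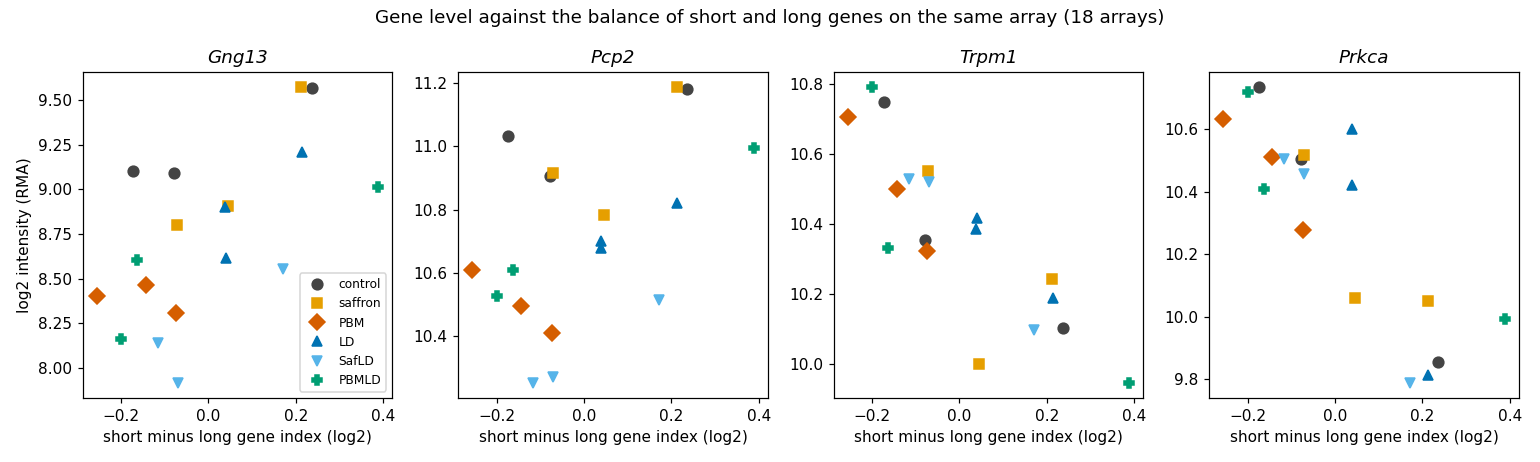
Log2 intensity of Gng13, Pcp2, Trpm1 and Prkca (vertical axes) against the short minus long gene balance of the same array (horizontal axis, log2), 1 point per array coloured by group. SafLD and control points span like ranges of the balance (-0.12 to 0.17 and -0.17 to 0.24), and at like values the SafLD points of Gng13 and Pcp2 lie lower. The balance was chosen after the values were seen, and no cause was tested.

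Other parts of the mGluR6 cascade were followed as a list of 9 genes, of which 7 were measured: the beta subunit Gnb3, the beta subunit Gnb5 that stabilises RGS proteins, the GTPase activators Rgs7, Rgs11 and Rgs20, the RGS anchor Rgs7bp and Lrfn2. The other 2, Gpr179 and Lrit3, had no probe set of their own. In SafLD against control 1 of the 7 was called, lower, where 1.34% of all probe sets were. The list median was -0.16 where all probe sets had 0.02. That gene was Rgs20, which acts on Go-type alpha subunits. Its control arrays read 9.70, 9.78 and 9.24 and its SafLD arrays 8.32, 9.04 and 8.88, a difference of -0.82 ± 0.21 (adjusted p = 0.0482). The call was kept only without control 3 when 1 array was left out, with adjusted p-values of 0.0448 to 0.176. It was also lost with the compared groups alone (0.0770), with the replicate number as a block (0.0762), with the lens level as a covariate (0.0578) and without the 4 arrays of high lens level (0.0655). PBM arrays of Rgs20 were at 8.87, 8.77 and 8.81, below all control arrays as in Gng13 and Pcp2, with a difference of -0.76 ± 0.21 that was not called (adjusted p = 0.232).

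Gnb5 was called in the average over light, lower by 0.44 ± 0.11 (adjusted p = 0.0211). Arrays without bright light read 11.90 to 12.21 and those with it 11.09 to 11.93, overlapping through PBMLD 1. The call held without any 1 array, and was lost under quantile normalization (adjusted p = 0.0949). Gnb5 also serves rod and cone phototransduction through another RGS protein. Gnb3, Rgs7, Rgs7bp, Rgs11 and Lrfn2 were called in 0 of the 12 comparisons.

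**Figure D5:**
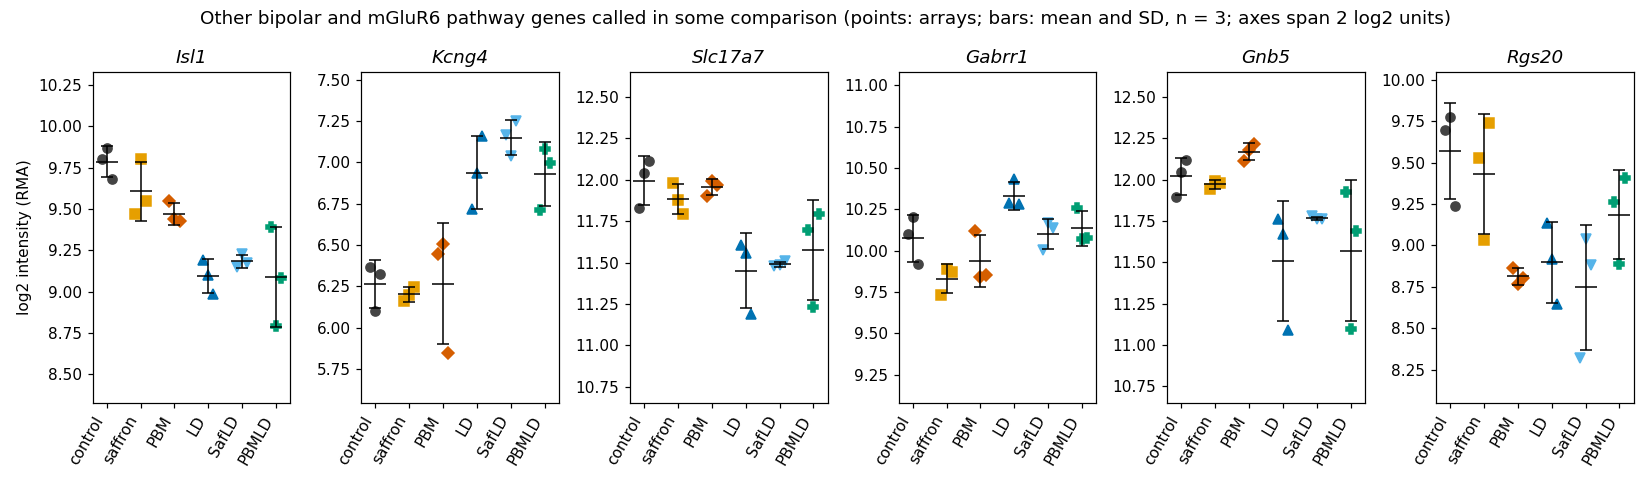
Log2 intensity of 6 further bipolar cell and mGluR6 cascade genes by group, each point an array and each bar the mean with SD of 3 arrays; panels span 2 log2 units. Isl1 and Kcng4 separate all 9 arrays with bright light from all 9 without, in opposite directions.

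A second list held 26 further genes known from bipolar cells, of which 20 were measured. In the average over light 2 were called higher and 2 lower, where 2.83% and 2% of all probe sets were. Isl1, a LIM homeobox factor of ON bipolar cells that amacrine and ganglion cells also use, was lower by 0.50 ± 0.08 (adjusted p = 8.34e-04), with 9.43 to 9.87 on the 9 arrays without bright light and 8.79 to 9.39 on the 9 with it. Kcng4, a silent potassium channel subunit that marks a cone bipolar type in the mouse, was higher by 0.76 ± 0.10 (adjusted p = 8.38e-05), with 5.85 to 6.51 without and 6.71 to 7.25 with bright light. Neither gene's groups overlapped, as for 0.633% of all probe sets upward and 0.397% downward. Slc17a7, the vesicular glutamate transporter of both photoreceptor and bipolar terminals, was lower by 0.44 ± 0.08 (adjusted p = 0.00413). Gabrr1, the rho GABA receptor subunit of bipolar terminals, was higher by 0.24 ± 0.07 (adjusted p = 0.0480). The calls of Isl1, Kcng4 and Slc17a7 held without any 1 array. That of Gabrr1 held only without control 2, PBM 1, PBMLD 2 or SafLD 1, its adjusted p running from 0.0313 to 0.109. It was also lost with the replicate number as a block (0.0746), median centring (0.0613), a variance trend with robust fitting (0.0502) and without the 4 arrays of high lens level (0.211).

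Isl1 was also called lower in each group with bright light against control: by 0.69 ± 0.14 in LD (adjusted p = 0.0175), by 0.69 ± 0.14 in PBMLD (0.0212) and by 0.60 ± 0.14 in SafLD (0.0263). Each of these calls was lost when single arrays were left out, SafLD in 6 of 6 cases (0.0530 to 0.102), LD in 4 of 6 (without control 1, control 2, LD 2 or LD 3, up to 0.102) and PBMLD in 3 of 6 (without control 1, control 2 or PBMLD 3, up to 0.101). All lens genes had estimates above 0 in LD against control. The Isl1 call there was also lost with the lens level as a covariate, at a difference of -0.72 (adjusted p = 0.0545). It was lost as well with the compared groups alone (0.0640), a setting that also ended the PBMLD call. Without the 4 arrays of high lens level, LD 2 was the only LD array, and the difference was -0.68. Kcng4 was called higher in SafLD against control (0.88 ± 0.17, adjusted p = 0.00762) and against saffron (0.95 ± 0.17, 0.00442), the first being lost without SafLD 3 (0.0512). Both were lost with the methods' t-test, adjusted (0.0849 and 0.115), and with a fold above 2 asked for as well. The Isl1 calls against control were lost in these settings too. The other 16 genes of the list were called in 0 of the 12 comparisons. In saffron against control all 20 had an estimate below 0, with a median of -0.21 against 0.01 over all probe sets, and 0 were called by limma, with 2 at an unadjusted p below 0.05. All 13 amacrine and all 12 ganglion cell genes were also below 0 in that comparison, with medians of -0.36 and -0.35. In PBM against control 18 of the 20 had an estimate below 0, with a median of -0.17 against 0.03 over all probe sets, and 0 were called, with 2 at an unadjusted p below 0.05.

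Genes of other cell types were read in the comparison that held the Gng13 and Pcp2 calls. In SafLD against control 4 of 17 rod genes were called lower and 0 higher (median -0.46), and the mean rod level was 12.47 to 12.57 on control arrays and 12.09 to 12.20 on SafLD arrays. Of 10 cone genes 2 were lower (median -0.48), of 12 ganglion cell genes 4 (median -0.53), of 13 amacrine cell genes 1 (median -0.21) and of 4 horizontal cell genes 0 (median -0.40). Of 9 Müller glia genes 0 were called (median -0.01), of 12 photoreceptor synapse genes 0 (median -0.16), of 17 lens genes 0 (median 0.05) and of 11 pigment epithelium genes 0 (median -0.04). The bipolar cell genes themselves had a median of -0.10 over the 8 members. Over all probe sets 1.34% were called lower and 1.45% higher, with a median of 0.02. The part of shifts in cell make-up in the members' values was not tested.

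The genes whose level most resembled the members were looked up among 14506 named genes by Pearson correlation over the 18 arrays, as a description. Nearest to the mean of the members, each scaled to its own mean and SD, were Gmip and Magi1 (0.80 each), Tmem215 and Arhgap39 (0.79 each), Sarm1 (0.77), Runx1t1, Zfp398 and Kcnb2 (0.76 each), and Ss18l1 and Aloxe3 (0.75 each). Single members had closer neighbours. Gng13 was nearest to Elob, an elongin subunit (0.97), Uqcrq, a subunit of respiratory complex III (0.96), and Bloc1s1 (0.95), and Pcp2 to Ssna1 (0.94), Trappc1 and Spa17 (0.91 each). Their spans were 1.46 kb to 11.1 kb.

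The longer members had longer neighbours for the most part. Gnao1 was nearest to Smap2 and Agap1 (0.96 each) and Apba1 (0.95), with spans of 46.4 to 435 kb, and Prkca to Bptf and Fbxl20 (0.94 each) and Tbc1d24 (0.93), with 29.0 to 102 kb. Trpm1 was nearest to Myt1 (0.91), Magi1 (0.90) and Cacna1f (0.89), the last being the calcium channel of the photoreceptor terminal. Grm6 was nearest to Trim9 (0.88), Adamts5 and Prrc1 (0.83 each). Cabp5 was nearest to Ppfia2 (0.85), Mrs2 (0.85) and Ccdc62 (0.84). Nyx was nearest to Lin28a (0.84), Grik1 (0.80), which is the kainate receptor subunit of OFF bipolar cells, and Helq (0.79).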

How the data were processed

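Total RNA of 18 rat retinas had been labelled with biotin and read on Affymetrix Rat Gene ST arrays. Each array's deposited column holds a log2 intensity per probe set. The authors summarised the scans by RMA, and Affymetrix Expression Console 1.1.2800.19935 is the software in the submitters' processing notes. No genome build is named in the sources used here. RMA narrows large differences between arrays and cannot be redone from summarised values, so these were used as deposited. Precision is limited by the 3 arrays per group. Of the 29214 probe sets, 15310 had 1 gene symbol, 323 had several and 13581 had none, and for a gene with several the brightest was used.

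A limma model (version 3.58.1, R 4.3.3) held all arrays (12 residual degrees of freedom, prior 5.05). Tests were two-sided, with Benjamini-Hochberg adjustment over all probe sets and no fold limit, for 12 comparisons and an F test over the groups. The fit was tested on simulated data. Named were all members, each gene of the 2 bipolar cell lists that was called, and the genes nearest by correlation. The members and the lists were chosen with earlier results of these data known. Promoters and gene spans came from RefSeq tables (GRCr8). Alternatives were the methods' t-test (unadjusted with a fold above 2, and adjusted), fits restricted to the groups being compared, a variance trend, array weights, a fold above 2, 3 normalizations, dim probe sets left out, the mean of all probe sets of a gene, the replicate number as a block, the lens level as a covariate and each array left out. The short minus long gene balance and the leaving out of 4 arrays with a mean lens level above 10 were added after seeing the data.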

Additional observations from a re-analysis of the deposited data

How the results depend on the processing

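No difference that was called in the fit or in an alternative changed its direction under any of the 33 alternatives. Several of these leave the estimate itself unchanged, so its direction could not change there. They are the t-tests, the compared groups alone, the variance trend, the fold limit, dim probe sets left out and the replicate block. The mean of all probe sets of a gene repeated the main fit. In SafLD against control, 2 members were called, 1 (Gng13) with a fold above 2 as well and 1 (Gng13) by the methods' t-test without adjustment, 0 by that test with adjustment, and 0 to 2 as arrays were left out. In SafLD against saffron, 1 member was called, against 0 by the methods' t-test (both forms), with the compared groups alone, with a fold above 2 and with the lens level as a covariate, 2 with array weights, with dim probe sets left out and with the short minus long balance, and 0 to 2 as arrays were left out. No member reached a fold above 2 in SafLD against saffron, so the 0 under a fold limit was fixed. Array weights gave 2 members in PBM against control, 2 in the average over light and 1 (Gng13) in SafLD against LD, against none in the fit without weights. With the weights 2.75%, 9.18% and 2.2% of all probe sets were called in these comparisons. In SafLD against saffron they called 7.89% of all probe sets, and in the F test 12.4%. The short minus long balance gave 2 in the average over light (9.15% of all probe sets) and 1 (Gng13) in PBMLD against control (2.33%). Leaving out 1 array gave 0 to 1 in the average over light. The F test, with 1 member, gave 2 with array weights, median centring, dim probe sets left out and the balance, 0 with cyclic loess, the lens level and without the 4 arrays of high lens level, and 0 to 2 as arrays were left out. The cause of these changes was not tested.

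Same-numbered arrays showed no common deviation in the median (correlation -0.05, with 9 of 45 pairs above 0.1), so the numbers were not taken as pairs. Their correlations ran from -0.34 to 0.28, and those of arrays with different numbers from -0.27 to 0.37. This check cannot exclude a pairing. With the number as a replicate block the counts of members were 2 in SafLD against control, 1 against saffron and 0 in the F test. The probe sets called over the whole array varied more than the members: 817 in SafLD against control (10 by the adjusted t-test to 3184 with array weights), 612 against saffron (0 to 2305), 45 in PBM against control (13 to 802), 90 in SafLD against LD (0 to 642), 220 in PBMLD against control (0 to 681), 325 in LD against control (0 to 622), 1409 in the average over light (123 with a fold above 2 to 2682) and 906 in the F test (677 to 3616). Another scaling moved the median of all probe sets by at most 0.05. The 3 arrays per group limit every statement, and a difference that was not called is not shown to be absent.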
